A study of Mus musculus with 2 samples.

Results

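Antigen presentation was followed through 9 genes in mouse intestinal organoids, cultures of gut epithelium that bud into crypts and villus-like regions. The list was set by gene name, with no threshold on a measured value. All 9 had a row among the 15745 genes of the count table: 7 of the MHC class I pathway (B2m, H2-K1, H2-D1, H2-T3, Tap1, Tapbp and Psmb8) and 2 of class II (Cd74 and H2-DMa).

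Single-cell RNA-seq was run on 1 library of organoids at day 5 and 1 library at day 3, both from wild-type C57BL/6 tissue labelled 10 weeks of age. Until day 3 both cultures were given Wnt3a-conditioned medium at 20% and Y-27632, which inhibits ROCK, at 10 µM. CHIR99021, which inhibits GSK3B, was present at 3 µM until day 1. The day 5 organoids then grew to day 5 in ENR medium (EGF, Noggin and R-Spondin) alone. The day 5 library held 1065 cells with a median of 13549 unique molecular identifiers (UMIs, each standing for 1 captured RNA molecule) and the day 3 library 798 cells with a median of 32063.5. The share of UMIs from mitochondrial genes was 6.64% at day 5 and 5.38% at day 3.

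MHC class I molecules show peptides made inside a cell to CD8 T cells and are found on nearly all nucleated cells. The proteasome cuts the peptides, the TAP transporter moves them into the endoplasmic reticulum, tapasin helps to load them, and each heavy chain reaches the surface together with β2-microglobulin. Class II molecules show peptides taken up from outside to CD4 T cells. They belong mainly to professional antigen-presenting cells, and gut epithelium makes them when interferon-γ is present. Organoid cultures hold epithelium without the T cells and macrophages of the gut wall.

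Levels are given as CPM, the UMIs of the gene per 1000000 UMIs of the group, with an exact Poisson 95% interval that covers counting error only. With 1 library per day there are no replicates, so no test was possible and all differences are between these libraries or between cell groups within one. A gene was called higher or lower where CPM differed by at least 1.5-fold and the intervals did not overlap. Cells of each library were clustered without the 9 genes and without any gene of the pathway lists used here. Clusters led by enterocyte markers are called absorptive cells (371 cells at day 5 and 84 at day 3), and those led by stem or cell cycle markers are called crypt cells (370 cells at day 5 and 263 at day 3). A cluster led by the S phase genes Ccne2, Ung, Ccne1 and Cdc6 had the markers for a name at day 5 (72 cells) and is in the crypt cells there. Its counterpart of day 3 (108 cells) did not and is outside them. Enterocyte markers made up 4.94% of UMIs in absorptive cells of day 5 and 0.304% in those of day 3 (medians over cells), so cells of this name were not alike on both days. The median UMI total was 10472 in absorptive and 19419 in crypt cells of day 5, and 24637 in absorptive and 34702 in crypt cells of day 3.

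Of the genes, 7 lie on chromosome 17 (GRCm38), which holds the mouse MHC, and all 9 are protein-coding. H2-K1 spans chr17:33996017-34000347 on the minus strand, H2-D1 chr17:35262730-35267499 on the plus strand and H2-T3 chr17:36185572-36190287 on the minus strand. Tap1 (chr17:34187553-34197225) and Psmb8 (chr17:34197721-34201454) are neighbours on the plus strand. Tapbp (chr17:33915899-33929292) and H2-DMa (chr17:34119541-34139101) lie on the plus strand as well, and B2m is at chr2:122147686-122153083 on the plus strand. Heavy-chain genes resemble each other, which can split reads between them. None of the 401 windows of 100 bases in the last 500 bases of any member's longest coding transcript was found in a transcript of another gene. Tapbp overlaps Zbtb22, H2-DMa overlaps CR974462.3 and Cd74 overlaps Mir5107 on the same strand, and reads from such pairs may be shared or lost.

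Promoter windows of RefSeq (GRCm38.p6, 250 bases before to 50 after the start) matched 8 members, and Cd74 had none. Stretches of 30 bases are shown for 4 of them because they hold the letters AANNGAAA, the core bound by interferon regulatory factors. Those of H2-K1 and H2-D1 also open with a κB-type element known from class I promoters, the 11 bases in capitals at their start. Both strands were searched, matches are in capitals, and the stretches read 5′ to 3′ in the direction of the gene.
B2m: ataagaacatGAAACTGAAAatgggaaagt
H2-K1: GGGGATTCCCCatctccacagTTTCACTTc
H2-D1: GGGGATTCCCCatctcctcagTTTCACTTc
H2-T3: cagaactatagTTTCACTTtttgctctctg

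They lie at chr2:122147538-122147567 on the plus strand (B2m), chr17:34000429-34000458 on the minus strand (H2-K1), chr17:35262923-35262952 on the plus strand (H2-D1) and chr17:36190259-36190288 on the minus strand (H2-T3). In the GENCODE annotation the H2-D1 and H2-T3 stretches fall within or overlap the 5′ UTR of a transcript that starts further upstream. AANNGAAA was found in 4 of the 8 windows and in 23.9% of all 32851 windows. The longer core of the interferon-stimulated response element, which has GAAA in place of its leading AA and so contains an AANNGAAA match, was found in the B2m window and in 3.44% of all windows. The κB-type element was found in the H2-K1 and H2-D1 windows and in 10 windows in all. Both windows share a run of 47 identical bases that holds it. TTCNNNGAA, the form of a gamma-activated site, matched Psmb8 alone among the 8 windows and 8.30% of all windows. AANNGAAA and the κB-type element were added after the sequences had been seen, and a match is letters only.

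Class I genes were higher at day 5 in 4 of 7 cases and lower in none. Of the 12782 genes compared, 12.3% were called higher and 31.5% lower at day 5, with a median log2 ratio of -0.33. The 7 class I members had a median log2 ratio of 1.07. Scaling by TMM (trimmed mean of M values) shifted every day 5 over day 3 ratio up by the same amount, to a median of -0.02 over all genes.

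B2m encodes β2-microglobulin, the light chain that every class I heavy chain needs. It had 423 CPM (413 to 433) at day 5, against 202 CPM (196 to 207) at day 3. The log2 ratio was 1.07, or 2.10-fold, and the intervals lay far apart.

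H2-K1 and H2-D1 encode the classical heavy chains that carry peptide to CD8 T cells. H2-K1 had 212 CPM (205 to 219) at day 5, against 178 CPM (173 to 182) at day 3, giving a log2 ratio of 0.26. H2-D1 had 159 CPM (153 to 165) at day 5, against 157 CPM (153 to 162) at day 3, giving a log2 ratio of 0.02. Neither gene was called. The interval of the H2-D1 log2 ratio ran from -0.05 to 0.09.

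H2-T3 encodes the thymus leukaemia antigen, a non-classical heavy chain of mouse gut epithelium that binds CD8αα. It showed the highest log2 ratio of the 9 genes, 2.53 (2.25 to 2.82), with 26.8 CPM (24.4 to 29.4) at day 5, against 4.62 CPM (3.87 to 5.48) at day 3. In UMIs this was 465 at day 5 and 133 at day 3, although the day 3 library held more UMIs in all.

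The peptide supply genes were not alike. Psmb8, the inducible β5i subunit of the immunoproteasome, had 8.47 CPM (7.16 to 9.96) at day 5, against 2.12 CPM (1.62 to 2.72) at day 3, giving a log2 ratio of 1.99. Tapbp, which encodes tapasin, had 39.2 CPM (36.3 to 42.3) at day 5, against 17.0 CPM (15.6 to 18.6) at day 3, giving a log2 ratio of 1.20. Both were called higher. Tap1, one chain of the TAP transporter, had 5.76 CPM (4.69 to 7.01) at day 5, against 3.93 CPM (3.24 to 4.72) at day 3. Its log2 ratio of 0.55 fell just short of the 1.5-fold rule, and it was called higher under TMM scaling (0.87).

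Of the class II members 1 of 2 was called higher. H2-DMa, the α chain of the H2-DM peptide exchanger, had 6.23 CPM (5.11 to 7.52) at day 5, against 3.23 CPM (2.61 to 3.96) at day 3, giving a log2 ratio of 0.94. Cd74 encodes the invariant chain, which escorts class II molecules. It had 8 UMIs in 7 cells at day 5 and 5 UMIs in 5 cells at day 3, or 0.461 CPM at day 5 and 0.174 CPM at day 3. The log2 ratio of 1.36 had an interval from -0.39 to 3.37, so a difference in Cd74 was not detectable at this depth.

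**Figure D1:**
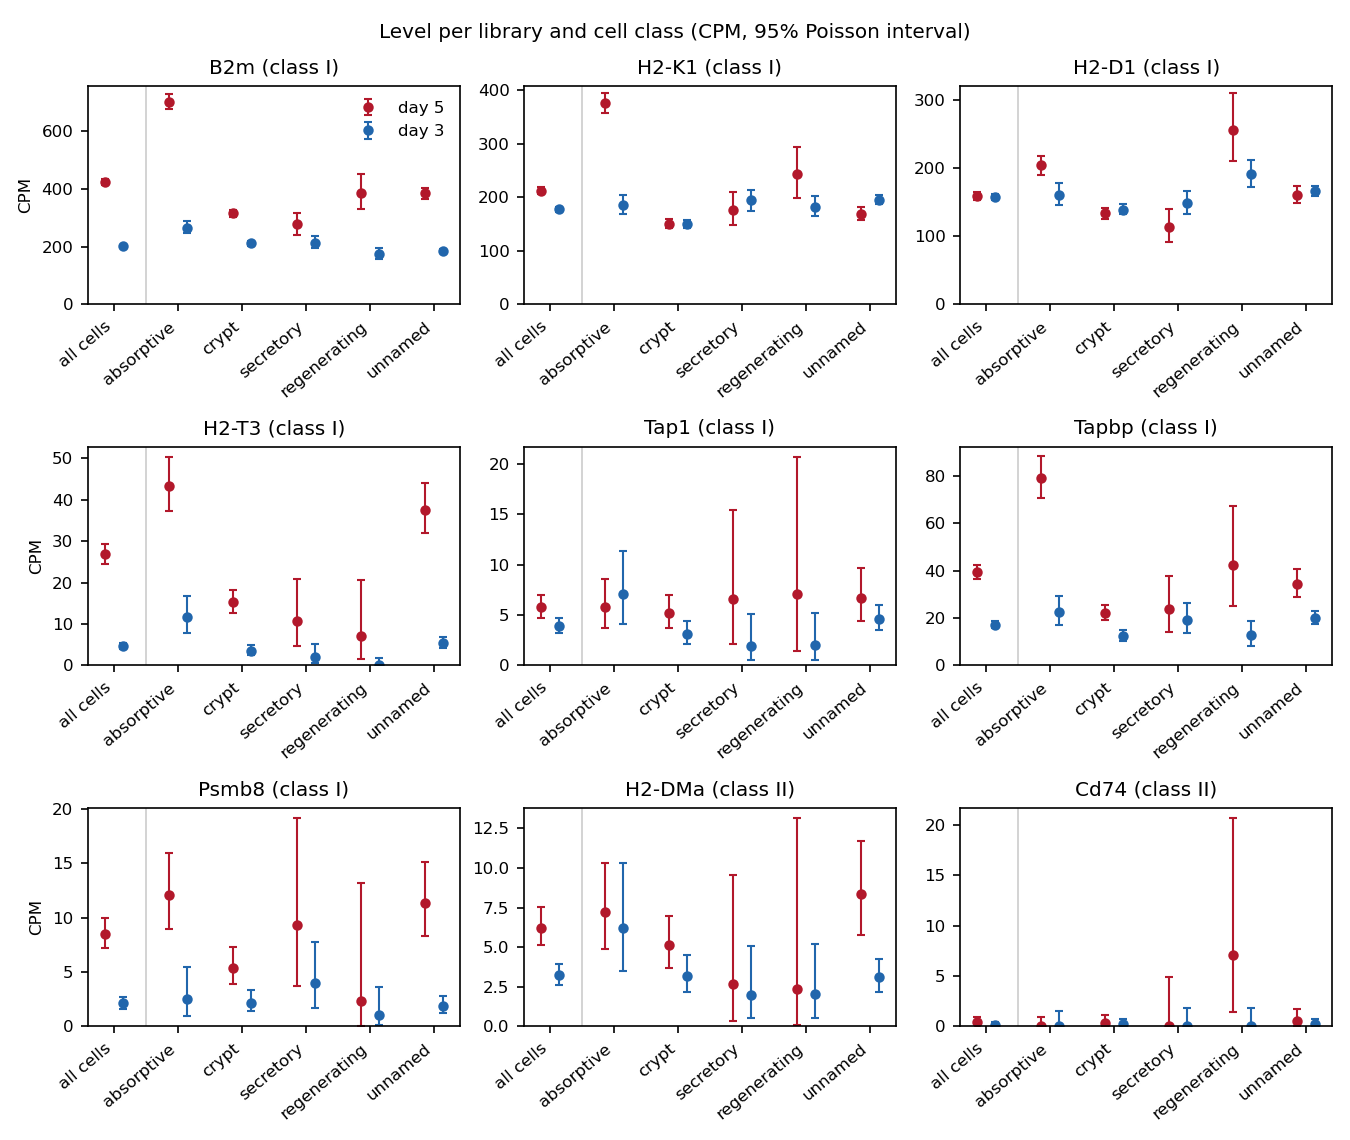
Level of each gene in CPM (vertical axes, from 0) in all cells and in 5 cell classes, for day 5 (red, left of each pair) and day 3 (blue), with 95% Poisson intervals. Day 5 absorptive cells hold the highest B2m, H2-K1, H2-T3 and Tapbp values, with B2m at 700.3 CPM. Cd74 is at or near 0 in every class but the 17 regenerating cells of day 5, where its value rests on 3 UMIs in 2 cells, at the floor of 3 counts.

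The depth of the cells moved with this comparison. Day 5 was restricted to the 320 cells with at least as many UMIs as the shallowest day 3 cell, which brought their median to 23804.5, still under the 32063.5 of day 3. Then 3 members were called higher instead of 5: B2m (0.63), H2-T3 (1.92) and Psmb8 (1.71). Tapbp (0.56) and H2-DMa (0.62) lost the call, and H2-K1 (-0.17) and H2-D1 (-0.26) turned to negative log2 ratios without a call. The share of cell classes moved too, since absorptive cells made up 34.8% of day 5 cells and 10.5% of day 3 cells. Without the absorptive cells of both days B2m (0.78), H2-T3 (2.43), Tap1 (0.66), Tapbp (0.69), Psmb8 (1.81) and H2-DMa (1.00) were called higher. The day 5 cells left included clusters without a name whose enterocyte markers made up 1.37% and 2.78% of UMIs (medians over cells). Those shares were above the 0.304% of the day 3 absorptive cells left out, so absorptive-like cells were not fully removed from day 5. What part depth and cell makeup have in the ratios was not tested beyond these values. For the restricted cell sets no share of all genes called is given, so those counts have no background beside them. Leaving mitochondrial genes out of the totals kept the count at 5.

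Within the day 5 library, class I genes were higher in absorptive than in crypt cells for 6 of 7 members and lower for none. In this comparison 20.5% of the 11147 genes were called higher in absorptive cells and 29.8% lower. B2m had 700.3 CPM (675 to 726) in absorptive cells and 314 CPM (302 to 327) in crypt cells, a log2 ratio of 1.16. H2-K1 had 376 CPM (357 to 395) in absorptive cells and 150.3 CPM (142 to 159) in crypt cells, a log2 ratio of 1.32. H2-K1, not called between the days as wholes, was thus 2.50-fold higher in one cell class than in the other within a library.

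Tapbp showed the highest ratio of the 9 genes here, 1.84 on the log2 scale, with 79.1 CPM (70.7 to 88.1) in absorptive and 22.1 CPM (19 to 25.6) in crypt cells. H2-T3 had 43.4 CPM (37.3 to 50.2) in absorptive and 15.2 CPM (12.6 to 18.2) in crypt cells, a log2 ratio of 1.51. Psmb8 had a log2 ratio of 1.15, with 12.1 CPM (8.95 to 15.9) in absorptive and 5.41 CPM (3.91 to 7.28) in crypt cells. None of these intervals overlapped.

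H2-D1 was the smallest of the called differences. It had 204 CPM (191 to 218) in absorptive and 134 CPM (126 to 142) in crypt cells, a log2 ratio of 0.61, and it lost the call when Stem-like cells alone stood for the crypt (0.35). Psmb8 lost it there as well (0.87). Tap1 had 5.79 CPM (3.71 to 8.61) in absorptive and 5.15 CPM (3.70 to 6.99) in crypt cells and was not called. The interval of its log2 ratio ran from -0.62 to 0.93.

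Neither class II member was called in this comparison. H2-DMa had 7.23 CPM (4.88 to 10.3) in absorptive and 5.15 CPM (3.70 to 6.99) in crypt cells, a log2 ratio of 0.50. Cd74 had 0 UMIs in the 371 absorptive cells, which allows a level of up to 0.723 CPM at a floor of 3 counts, and 3 UMIs in the 370 crypt cells. Both sums are at or under that floor, so no ratio is given.

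Depth and mitochondrial content differed between these classes as well. The mitochondrial share was 9.38% in absorptive and 5.46% in crypt cells of day 5 and 6.13% in absorptive and 4.51% in crypt cells of day 3, and its part in the ratios was not tested.

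Among day 3 cells fewer class I genes were called. H2-T3 and Tapbp were called higher in absorptive cells, 2 of 7 class I members, and no member was lower, with 11.0% of all genes called higher and 17.5% lower. H2-T3 had 11.6 CPM (7.74 to 16.8) in absorptive and 3.48 CPM (2.42 to 4.84) in crypt cells, a log2 ratio of 1.75. Tapbp had 22.5 CPM (16.9 to 29.3) in absorptive and 12.4 CPM (10.3 to 14.8) in crypt cells, a log2 ratio of 0.86.

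The remaining class I members had log2 ratios of 0.33 (B2m), 0.31 (H2-K1), 0.21 (H2-D1), 1.22 (Tap1) and 0.27 (Psmb8) without a call. B2m had 266 CPM (245 to 287) in absorptive and 211 CPM (202 to 220) in crypt cells. H2-K1 had 185 CPM (169 to 203) in absorptive and 149.6 CPM (142 to 157) in crypt cells. For both genes the intervals were apart but the fold was below 1.5. Tap1 rested on 17 UMIs in absorptive and 31 in crypt cells and was called under TMM scaling. H2-DMa had 15 UMIs in absorptive and 32 in crypt cells, a log2 ratio of 1.00 (-0.02 to 1.90), and Cd74 had 0 UMIs in absorptive and 2 in crypt cells.

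The counting intervals of the absorptive over crypt ratio did not overlap between the days for B2m (1.08 to 1.23 at day 5, 0.20 to 0.46 at day 3), nor for H2-K1 (1.21 to 1.43 at day 5, 0.15 to 0.46 at day 3). For H2-T3 they did (1.17 to 1.86 at day 5, 0.97 to 2.50 at day 3). Whether the class difference itself differs between the days was not tested, with 1 library of each.

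**Figure D2:**
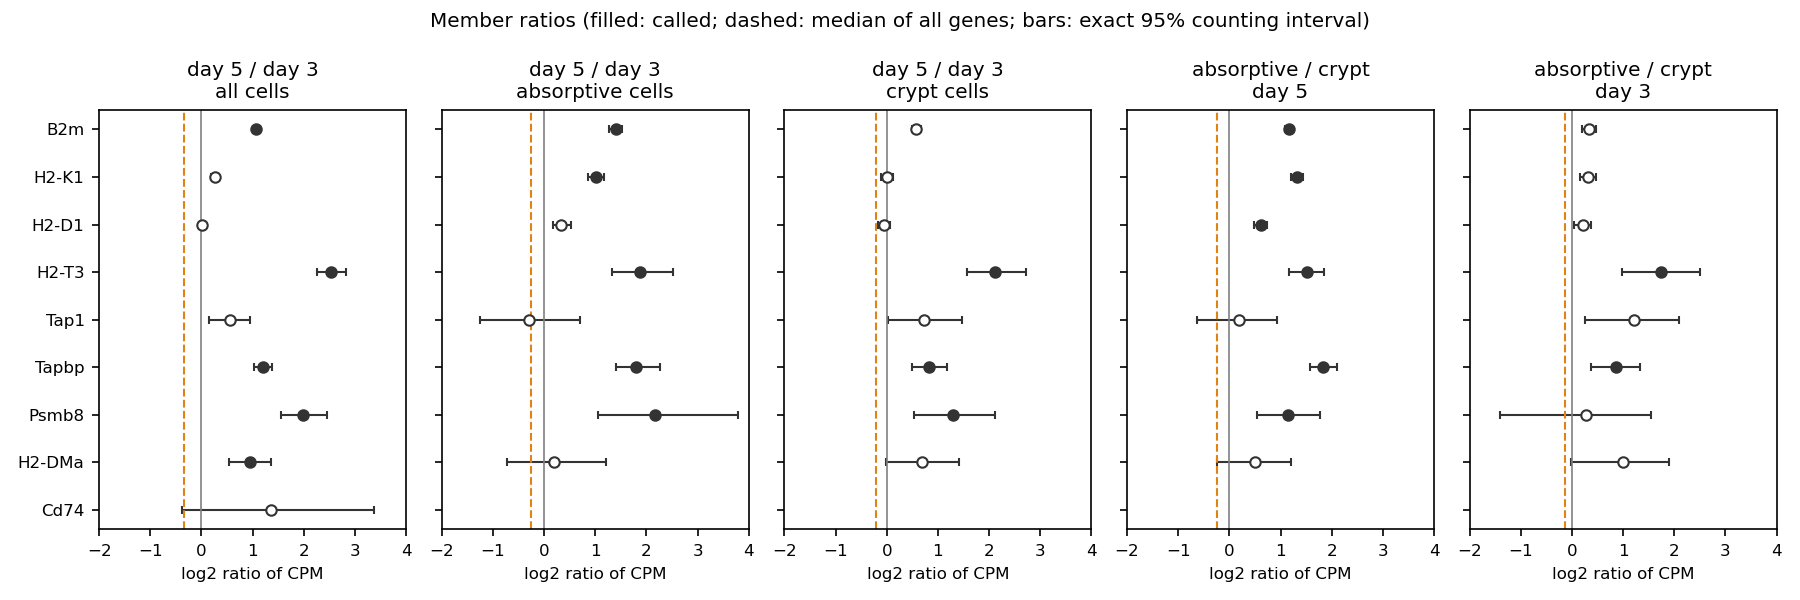
Log2 ratio of CPM for the 9 genes in 5 comparisons, with exact 95% counting intervals, called ratios filled and the median of all genes dashed. H2-T3 and Tapbp are called in all 5 panels, while H2-K1 is called in absorptive cells between the days and between cell classes of day 5. No ratio is drawn for Cd74 where both sums are at or under 3 UMIs.

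The day comparison was repeated within each cell class. In crypt cells H2-T3 (2.11), Psmb8 (1.29) and Tapbp (0.83) were higher at day 5, against 8.66% of all genes called higher. Psmb8 lost the call with day 5 cells held to at least the lowest day 3 total (1.10), at clustering resolution 0.5 (1.00) and between Stem-like cells alone (1.49). With the S phase cluster of day 3 added to its crypt cells, an alternative chosen after seeing the data, H2-T3 (1.79), Psmb8 (1.27) and Tapbp (0.82) were called. H2-T3 had 15.2 CPM in day 5 crypt cells and 3.48 CPM in day 3 crypt cells, and the interval of day 5 crypt cells overlapped that of day 3 absorptive cells (11.6 CPM). B2m had 314 CPM in day 5 and 211 CPM in day 3 crypt cells, a 1.49-fold difference just under the rule that was called under TMM scaling. H2-K1 (0.01) and H2-D1 (-0.06) were not called, with intervals of -0.10 to 0.12 and -0.17 to 0.06. H2-DMa (0.69) and Tap1 (0.74) were not called.

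In absorptive cells 5 of the 7 class I members were higher at day 5, against 13.3% of all genes called higher and 24.7% lower. They were Psmb8 (2.17), H2-T3 (1.88), Tapbp (1.81), B2m (1.40) and H2-K1 (1.02). H2-D1 (0.34) was called under TMM scaling alone, and Tap1 (-0.30) and H2-DMa (0.19) were not called. Psmb8 rested on 6 UMIs in day 3 absorptive cells, and the interval of its log2 ratio ran from 1.05 to 3.79. Cd74 had 0 UMIs in absorptive cells of both days.

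The genes were also followed without any clustering, with cells ranked by the share of their UMIs in 20 enterocyte markers and divided into 5 bins of equal size. At day 5, B2m stood at 298, 324, 380.2, 547 and 812 CPM from the lowest to the highest bin. H2-K1 stayed level over the first 3 bins (155, 156 and 163 CPM) and was at 289 and 431 CPM in the last 2. Tapbp, like B2m, was higher in each bin than in the one before it, at 21.3, 22.9, 37.7, 58.8 and 89.4 CPM.

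H2-T3 followed another course. Its CPM in the day 5 bins were 9.32, 19.7, 33.6, 48.5 and 42.9, so that it was already higher in bin 2 than in bin 1, and the intervals of the last 2 bins overlapped. Psmb8 likewise had its highest value in bin 4, 15.3 CPM, against 9.58 CPM in bin 5, with overlapping intervals. Tap1 varied between 4.96 and 6.38 CPM over the bins with overlapping intervals throughout, and H2-DMa between 4.97 and 8.02. The median UMI total per cell was 20165 in the lowest and 9968 in the highest bin, and the mitochondrial share was 5.03% in the lowest and 9.74% in the highest.

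At day 3 the bins lay closer together for B2m and H2-K1. Bins were cut within each library, so bins of the same number are not alike between the days. Enterocyte markers reached at most 0.181% of UMIs in bin 4 of day 3, under the 0.242% that topped bin 1 of day 5. In bin 5 they ranged from 0.181% to 4.99% at day 3 and from 4.78% to 11.8% at day 5. B2m was at 175, 190.4, 203, 219.9 and 230.3 CPM from low to high, H2-K1 between 169.6 and 192 CPM, and H2-T3 at 1.83 CPM in the lowest and 10.7 CPM in the highest bin. From the lowest to the highest bin 1 member was called at day 3, H2-T3, and 6 at day 5, B2m, H2-K1, H2-D1, H2-T3, Tapbp and Psmb8. Of all genes 20.4% were called higher and 27.1% lower in the highest bin at day 5, and 10.3% higher and 14.1% lower at day 3.

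**Figure D3:**
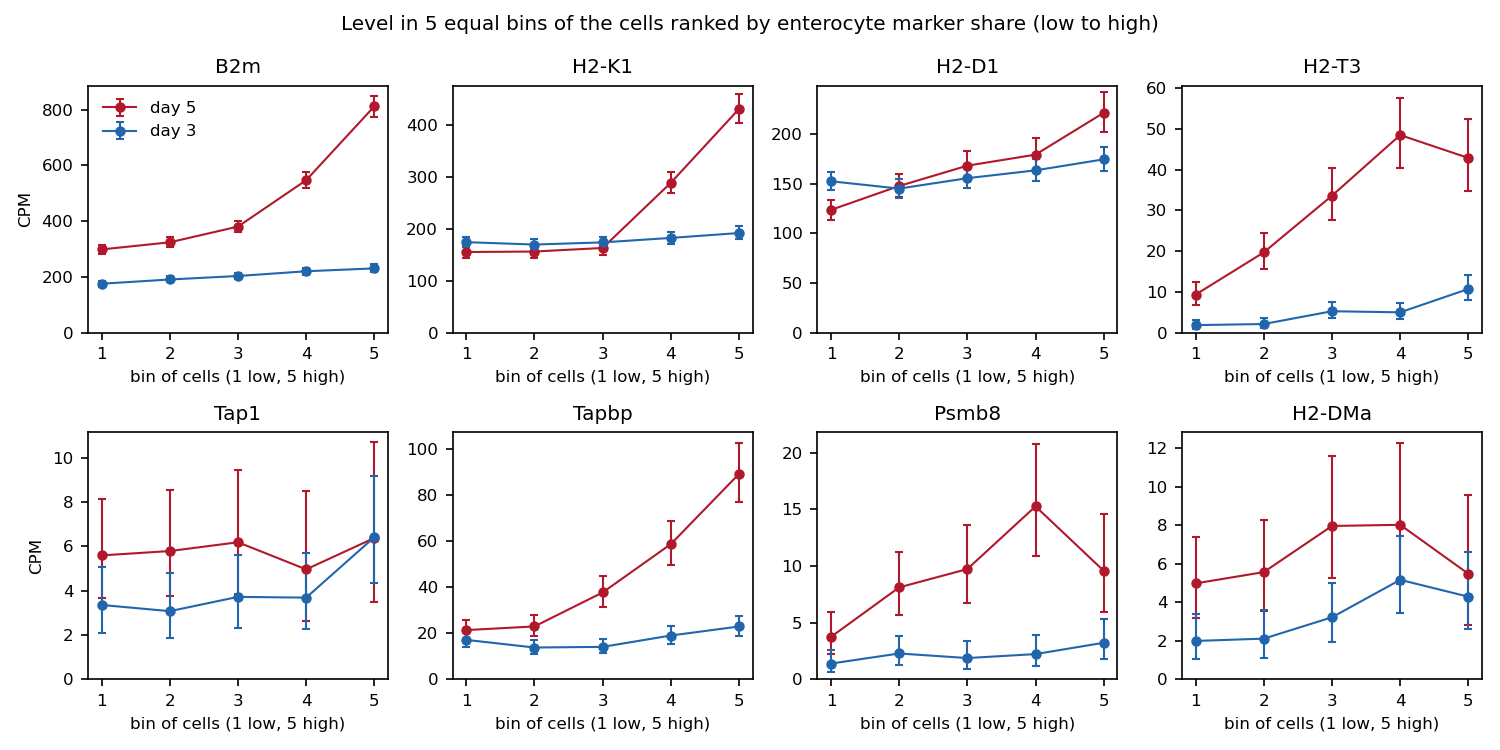
CPM of 8 genes (vertical axes, from 0) in 5 equal bins of the cells ranked from low to high share of enterocyte markers, for day 5 (red) and day 3 (blue), with 95% Poisson intervals. At day 5 B2m reaches 812 CPM and Tapbp 89.4 CPM in the highest bin, while H2-K1 is level over the first 3 bins. Bins are cut within each library, so those of the same number differ in marker share between the days.

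Shares of cells with a UMI were compared at equal depth. With each cell thinned to 6700 UMIs, B2m was detected in 91.9% of day 5 cells (Clopper-Pearson interval 90.1 to 93.5), against 74.1% (70.9 to 77.1) of those of day 3. The unthinned shares were 99.2% at day 5 and 99.0% at day 3. H2-T3 was detected in 18.3% of thinned day 5 cells and 2.76% of day 3 cells, and Tapbp in 23.2% of day 5 and 9.77% of day 3 cells. Psmb8 was found in 5.92% of day 5 and 1.25% of day 3 cells. These 4 genes had intervals that did not overlap between the days, each with the higher share at day 5. Without thinning 4 genes had intervals apart, H2-T3 and Psmb8 with the higher share at day 5 and H2-K1 and H2-D1 with the lower. The unthinned share was 93.6% at day 5 and 99.0% at day 3 for H2-K1, and 88.7% at day 5 and 98.5% at day 3 for H2-D1. No share of all genes with intervals apart is given, so these counts of genes have no background beside them.

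In the day 5 library, 98.7% of thinned absorptive cells and 88.1% of crypt cells held B2m. H2-K1 was held by 87.9% of absorptive and 63.0% of crypt cells. The median thinned crypt cell held 2 UMIs of B2m, 1 of H2-K1 and 0 of Tapbp. For B2m 81.7% of absorptive and 38.1% of crypt cells held more than that median. The share was 66.0% of absorptive and 27.8% of crypt cells for H2-K1. For Tapbp it was 40.2% of absorptive and 11.1% of crypt cells, so the cells of both classes overlapped in level. H2-D1 was detected in 71.7% of absorptive and 62.4% of crypt cells, with overlapping intervals. Unthinned, at unequal depth, its order was reversed, with 85.7% of absorptive and 90.8% of crypt cells and overlapping intervals. No cell class is known to lack class I, so the background of free RNA was read from Defa24, a Paneth cell defensin. It was detected in 46.4% of thinned absorptive cells, with a median total of 10472 UMIs before thinning, and in 82.1% of secretory cells, with a median of 17223. Its level was 86.3 CPM in absorptive and 40856 CPM in secretory cells. Detection alone is therefore no sign of expression in a given cell, and its part in the low shares of Psmb8, Tap1 and H2-DMa was not tested.

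The remaining cell classes of day 5 stood between or beside these. Regenerating cells, 17 cells led by wound-repair markers such as Anxa1, Ly6a and Clu, had 386 CPM (330 to 450) of B2m. Cells of 2 clusters that matched no marker list, led by Edn2 and Depp1, had 384 CPM (365 to 403) when pooled. The cluster of 133 cells had 341 CPM (317 to 365), which overlapped the crypt interval, and that of 135 cells had 438 CPM (408 to 470). In order, B2m was highest in absorptive cells, then in regenerating and pooled unnamed cells, whose intervals overlapped, and then in crypt cells. Secretory cells came last at 277 CPM (241 to 317), which overlapped the crypt interval. H2-D1 broke this order, with 257 CPM (211 to 310) in regenerating cells against 204 CPM (191 to 218) in absorptive cells, whose intervals overlapped. H2-T3 in the unnamed cells was 37.6 CPM (31.9 to 44.1), which overlapped the absorptive interval and lay above that of crypt cells.

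The day 3 library held a cluster with an uneven class I profile. It comprised 59 cells, carried no name under the marker rule, and was led by Mal, Lama3 and Tmem40, with a mitochondrial share of 9.32% against 5.38% for the library. H2-K1 was at 273 CPM (252 to 294) there against 185 CPM (169 to 203) in day 3 absorptive cells. H2-D1 was at 199.8 (183 to 218) against 161 CPM (146 to 178). For both the intervals were apart but the fold was below 1.5. Tapbp was at 36.0 (28.9 to 44.2) against 22.5 CPM (16.9 to 29.3) and Tap1 at 9.99 (6.46 to 14.7) against 7.07 CPM (4.12 to 11.3), with overlapping intervals. None of these differences from absorptive cells met the call rule. Day 3 crypt cells had 149.6 CPM (142 to 157) of H2-K1, 12.4 CPM (10.3 to 14.8) of Tapbp and 3.08 CPM (2.09 to 4.37) of Tap1. The cluster was higher than crypt cells by the call rule for those genes. For H2-D1, at 139 CPM (132 to 147) in crypt cells, the intervals were apart but the fold was below 1.5. B2m, in contrast, stood at 159.8 CPM (145 to 176) in the cluster against 266 CPM (245 to 287) in the absorptive cells. H2-T3 was at 1 UMI (0.40 CPM) in the cluster against 28 UMIs (11.6 CPM) in absorptive cells. Both genes were lower in the cluster than in absorptive cells by the call rule. The cluster was singled out after its values were seen.

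Over the 8 day 5 clusters of at least 20 cells, B2m and H2-K1 had a Pearson correlation of 0.94 on log2(CPM + 1), and over the 10 day 3 clusters it was -0.33. B2m and Tapbp had 0.97 at day 5 and -0.22 at day 3. For H2-K1 and Tapbp the values were 0.91 at day 5 and 0.81 at day 3. Clusters of a library share its preparation, and depth differs among them, so these values are descriptions. The genes with the profile most like that of B2m over all 18 clusters, out of 10198 genes, were Ndufa1 (0.98), Atp5e (0.97), Scp2 (0.97), Phyh (0.96) and Sord (0.96). For Cd74, with 13 UMIs in all, no profile could be read: its closest genes, Mtus2 (0.70), Lztfl1 (0.66), Trim11 (0.65), 6330403L08Rik (0.65) and Rbm4 (0.64), rest on those counts.

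**Figure D4:**
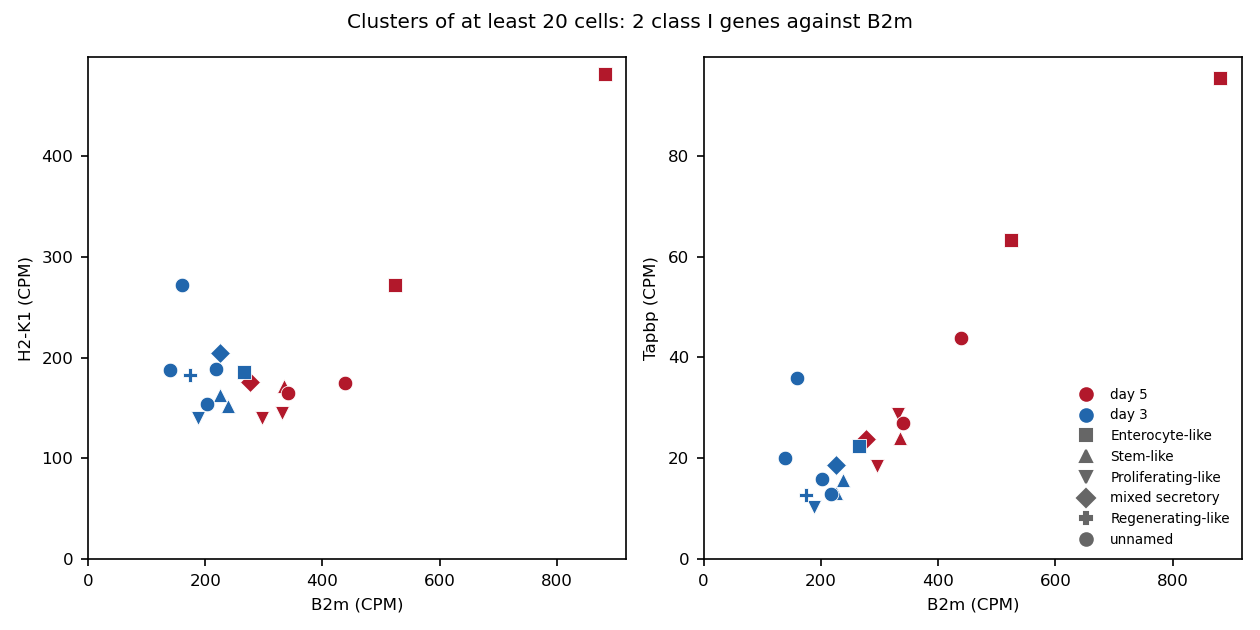
H2-K1 (left) and Tapbp (right) against B2m, in CPM, for the 18 clusters of at least 20 cells, day 5 in red and day 3 in blue, with symbols for the cluster name. The day 5 clusters run up towards the 2 Enterocyte-like ones, and a day 3 cluster with no name sits at 273 CPM of H2-K1 and 159.8 CPM of B2m.

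Heavy chains other than the 3 members were mostly non-classical ones. Of 11 measured genes of that list 6 were higher at day 5 and 1 lower, with a median log2 ratio of 0.99. For this list and those below, the share of all genes called was 12.3% higher and 31.5% lower at day 5. These shares are without TMM scaling, and none is given with it. H2-Q1 (2.97) had 4.73 CPM at day 5 and 0.591 CPM at day 3. H2-T23 (2.89), which encodes Qa-1, the ligand of CD94/NKG2 receptors, had 56.3 CPM at day 5 and 7.58 CPM at day 3. H2-Q2 (2.62), named here after its values were seen, had 79.4 CPM at day 5 and 12.9 CPM at day 3.

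H2-Q7, which encodes the non-classical Qa-2 antigen, was the lower one. It had 36 UMIs (2.08 CPM) at day 5 and 124 UMIs (4.31 CPM) at day 3, a log2 ratio of -1.04, and H2-Q10 was not called (-0.33). Among day 5 cells H2-Q7 had 0 UMIs in absorptive cells, allowing up to 0.723 CPM at the same floor of 3 counts, and 32 UMIs in crypt cells. H2-Q1 was the reverse, with 71 UMIs in absorptive and 0 in crypt cells, which allows up to 0.377 CPM there. H2-Q2 had 255 CPM in absorptive and 11.8 CPM in crypt cells of day 5, a log2 ratio of 4.42. Reads of these paralogs may be split by sequence likeness: 0.998% of the 3′ windows of H2-Q1 were also in H2-Q2, and 21.2% of those of H2-T22 in H2-T10.

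The immunoproteasome list leaned to day 5. Psmb9, the β1i subunit, was higher at day 5 (10.8 CPM) than at day 3 (3.20 CPM), with a log2 ratio of 1.76, and Psme2 at 0.60. In all 2 of its 5 genes were higher and none lower, and 4 were higher under TMM scaling. Psmb10 (0.50) and the assembly chaperone Pomp (-0.53) were not called. The constitutive list had 11 of 14 genes lower and none higher, beside 31.5% of all genes called lower without TMM scaling. It was led by Psma3 (-1.23) and Psmb3 (-0.90), but TMM scaling left 1 of the 14 lower. Its highest ratios, Psmb1 (0.10) and Psmb6 (-0.40), were not called.

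Psmb8 takes the place of Psmb5 in the immunoproteasome. Psmb5 had 99.9 CPM at day 5 and 181.8 CPM at day 3 (-0.86, not called under TMM scaling). For each 100 UMIs of Psmb5 there were 8.48 of Psmb8 (7.12 to 10.0) at day 5 and 1.17 (0.891 to 1.5) at day 3, a ratio that does not depend on the scaling. Of the 3′ windows of Psmb5, 32.7% were also in Gm3375, so Psmb5 reads may be lost and the size of the ratio is uncertain. It was 19.3 (14.0 to 26.2) in absorptive and 4.21 (3.03 to 5.71) in crypt cells of day 5. In day 3 it was 1.37 (0.50 to 3.00) in absorptive and 1.14 (0.710 to 1.72) in crypt cells, which overlapped and rested on 6 Psmb8 UMIs in absorptive cells. Per 100 UMIs of Psmb7, day 3 held 51.6 of Psmb10 (43.1 to 61.7) in absorptive and 26.0 (23.5 to 28.9) in crypt cells, which were apart. Per 100 of Psmb6 it held 1.82 of Psmb9 (0.904 to 3.28) in absorptive and 0.918 (0.614 to 1.32) in crypt cells, which overlapped. Between absorptive and crypt cells of day 5 none of the 5 genes of the immunoproteasome list, which leaves out Psmb8, was called. Their median log2 ratio was 0.20. Of the constitutive list, which holds Psmb5, 13 of 14 genes were lower in absorptive cells, beside 29.8% of all genes.

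Of the 6 measured class I loading genes 2 were higher at day 5 and 1 lower. Tap2 (1.35), the partner chain of Tap1, and Tapbpl (0.67), a tapasin-related peptide editor, were higher, while the chaperone Calr was lower (-0.96) and Pdia3 was not called (-0.58). Nlrc5, the transactivator of class I genes, had no row and was not analysed here.

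Interferon signalling genes were mostly level between the days, with 3 of 17 higher and none lower, and 7 higher under TMM scaling. Without that scaling 12.3% of all genes were called higher at day 5 and 31.5% lower, and the shares with it are not given. The 3 higher genes were Irf7 (2.24), Irf2 (0.98) and Ifnar2 (0.95), whereas Ifnlr1 (-0.63), the type III interferon receptor chain, and Socs1 (-0.60) were not called. Between cell classes of day 5, 10 of 16 measured genes of this list were higher in absorptive cells and 1 lower, beside 20.5% of all genes called higher and 29.8% lower. Irf7 had 16.4 CPM in absorptive and 2.64 CPM in crypt cells (2.61), and Ifnlr1 had 7.71 CPM in absorptive and 1.13 CPM in crypt cells (2.71). The gene that was lower was Irf8 (-1.22), with 21.7 CPM in absorptive and 50.7 CPM in crypt cells.

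Most class II genes stayed near the limit of detection. H2-Ab1, a classical class II β chain, had 2 UMIs at day 5 and 10 at day 3, and H2-Eb1 had 4 at day 5 and 10 at day 3. Neither was called, with log2 ratios of -1.34 (H2-Ab1) and -0.49 (H2-Eb1). In the list of other class II genes 6 of 9 had no row, the class II transactivator Ciita and H2-Aa among them, and these were not analysed here. At day 5, 3 of the 8 Cd74 UMIs came from 2 of the 17 regenerating cells. Of Cd74, H2-DMa, H2-Ab1 and H2-Eb1, at least 2 were found together in 0 cells of day 5 and 1 cell of day 3.

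Proteases of the class II route were far better detected. Of 6 measured genes 2 were higher at day 5, Ctss (1.80) and Ifi30 (0.73), and 1 was lower, Ctsl (-0.92), while Ctsd was not called (-0.39). Cathepsin S, the product of Ctss, trims the invariant chain, and it had 50.9 CPM in absorptive and 14.5 CPM in crypt cells of day 5.

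Genes of the contact between epithelium and intraepithelial lymphocytes included the highest ratios of the pathway lists. Btnl1 (4.83), a butyrophilin-like partner of γδ T cell receptors in mouse gut, had 14.4 CPM at day 5 and 0.487 CPM at day 3, and Btnl2 (3.48) had 8.30 CPM at day 5 and 0.730 CPM at day 3. In this list 3 of 6 measured genes were higher and 1 lower. The lower one was Rae1 (-1.01), a symbol that in this annotation belongs to an RNA export factor, and Raet1e, an NKG2D ligand, was not called (-0.12). Of the costimulation list Icosl (1.61) was higher and Cd274 (-0.43) was not called, the only 2 of 6 with enough UMIs.

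**Figure D5:**
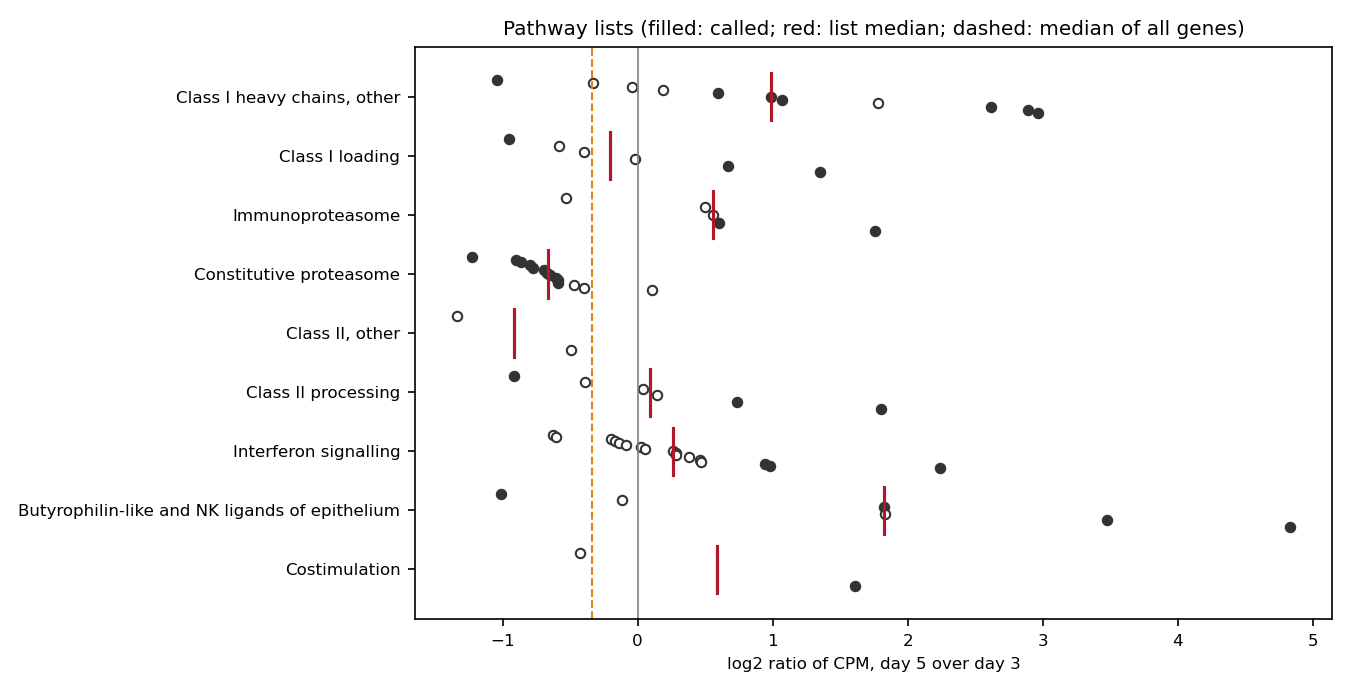
Log2 ratio of CPM, day 5 over day 3, for each measured gene of the 9 pathway lists (rows), with called genes filled, list medians in red and the median of all genes dashed. The constitutive proteasome lies left of 0 apart from Psmb1 at 0.10, and H2-Q1 at 2.97 and Btnl1 at 4.83 mark the right ends of their lists.

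Most of the listed markers of other cell types had no row, so the level of such cells could be read only in part. Of 13 T cell markers 2 had a row, Itgae and Ccl5, with 14 UMIs at day 5 (0.807 CPM) and 5 at day 3 (0.174 CPM), and both were at 0 in day 5 absorptive cells. Of the 14 UMIs of day 5, 13 were in crypt cells, where Ccl5 had 12 and 2 cells held at least 3. Their part in the class ratios was not tested. Of 13 markers of other immune cells 6 had a row, with a summed level of 7.61 CPM at day 5 and 18.5 CPM at day 3, of which Cd14 held 109 of 132 UMIs at day 5 and 419 of 532 at day 3. In day 5 absorptive cells that sum was 1.69 CPM and in day 5 crypt cells 12.1 CPM, with Csf1r and Laptm5 at 0 in both. Over all day 3 cells the sum lay between the levels of Tapbp (17.0 CPM) and H2-D1 (157 CPM). Of 9 stromal and endothelial markers 2 had a row, with 11 UMIs at day 5 and 29 at day 3.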

How the data were processed

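The values used were deposited UMI counts per gene and cell, made by the authors with Cell Ranger 1.3.0 against mm10, per the submitters' processing notes, from 10x 3′ v2 libraries, per the labels' protocols. A deposited table of log2 scaled counts served as an alternative, and its scaling by the authors is not given in the sources used here. Ensembl IDs were matched to symbols for 15681 of 15745 genes. The 9 genes, the pathway lists and the marker lists were chosen with earlier results of these data known.

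Cells of each library were clustered with scanpy 1.11.5 (2000 variable genes without the described genes, 30 components, 15 neighbours, Leiden resolution 1). A cluster was named when at least 3 fixed markers of a type were among its 50 leading genes. The number 50 was set after leading genes had been seen, and 25 is an alternative. No doublet caller was run and no cell was removed. Column names hold cell numbers and no barcodes, so barcodes shared between libraries were not counted.

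UMIs were summed per library or class. Log2 ratios had 0.5 UMI added to each sum, and their intervals are exact conditional intervals. A gene was compared where both sums together held at least 10 UMIs. TMM factors came from edgeR 4.0.16, and no edgeR test was run. The text names all 9 genes, the 2 highest and 2 lowest of each pathway list by the day ratio, and the 5 closest profiles of B2m and Cd74. Summed totals were 17349076 UMIs at day 5 and 28764033 at day 3.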

Additional observations from a re-analysis of the deposited data

How the results depend on the processing

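No paired analysis was possible because each day has 1 library and no result comes from a test. The number of members called higher at day 5 was 5, and 3 with day 5 cells held to a minimum, the lowest UMI total of a day 3 cell. For absorptive over crypt cells of day 3 it was 2, and 1 with the highest and lowest of 5 cell bins by enterocyte markers in place of clusters. Of the 90 genes in the pathway lists, measured or not, 19 were higher at day 5, and 12 with a 2-fold rule. With the 1.5-fold rule 12.3% of the 12782 genes compared were higher. That share leaves out genes with too few UMIs to be compared, which the 90 include along with genes without a row. The 19 of 90 and the 12.3% therefore do not have the same base. No share of all genes is given for the 2-fold rule, so the 12 has no background beside it. Members whose share of cells with a UMI was apart between days numbered 4 after thinning, all higher at day 5, and without it 2 were higher and 2 lower. H2-K1 and H2-D1, not called between the days, had negative log2 ratios with that minimum and without absorptive cells. By differences of mean deposited log2 values per cell, another scale, H2-D1 was also negative (-0.09), and H2-T3 (0.41), Tapbp (0.35) and Psmb8 (0.11) stood under B2m (0.97). Other counts of members under the alternatives run stayed within 1.5 times the reported ones, and no member level was called lower under any of them. Naming clusters from 25 leading genes, chosen after seeing the data, ended the call of H2-D1 between classes of day 5 (0.56). Psmb8 lost its day call in crypt cells with that minimum (1.10), at clustering resolution 0.5 (1.00) and with Stem-like cells alone (1.49), the last an alternative also chosen after seeing the data. The cause was not tested. Genes with few UMIs, Cd74, Tap1, Psmb8 and H2-DMa, are limited by depth.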
